A study of Mus musculus with 3 samples.

Results

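Caveolae are flask-shaped pits of the plasma membrane, and the genes described here encode their coat, the proteins at their neck and the diaphragm that closes them. Caveolins insert into the membrane, cavins bind from the cytoplasm, and EHD and PACSIN proteins shape and hold the neck. Plvap forms the diaphragms of caveolae and of fenestrae, the pores of permeable capillaries. In the renal medulla the ascending vasa recta are fenestrated vessels known for Plvap, whereas the descending vasa recta are lined by a continuous endothelium. The 10 genes were Cav1, Cav2, Cav3, Cavin1, Cavin2, Cavin3, Plvap, Ehd2, Ehd4 and Pacsin2, chosen by name from 19938 genes of the array, and each had exactly 1 probe set that names a single gene. RNA came from green fluorescent cells sorted from collagenase-treated medulla of adult male FVB/N mice that carry the Tg(TIE2GFP)287Sato transgene, which drives the fluorescent protein from the Tie2 promoter. Each of 3 arrays measured a pool of 2 kidneys. All 3 form 1 group of medullary endothelial cells and serve as its replicates, and no other compartment, genotype or treatment was analysed here.

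Tie2 is known from endothelial cells and also from some blood cells, so the sorted population was set against marker genes. All 12 pan-endothelial markers reached 246 units, a background limit set by genes of sensory receptors, in every array, and Pecam1, Cdh5 and Tek averaged 12.44 ± 0.08, 12.71 ± 0.18 and 12.80 ± 0.19 log2 units (SD, n = 3). Of 10 smooth muscle and pericyte markers 3 did so, of 6 adipocyte markers 3, of 6 fibroblast markers 2 and of 6 leukocyte markers 1. Of 4 glomerular endothelial markers 3 did so. Over all genes the share was 55.0%. Of tubule markers, 3 of 5 for the collecting duct, 2 of 4 for the thick ascending limb and 1 of 5 for the proximal tubule did so, among them the collecting duct water channel Aqp2 at 9.67, 9.67 and 9.27 log2 units in replicates 1, 2 and 3. The thick ascending limb markers Umod (11.61, 10.40 and 9.49) and Slc12a1 (9.68, 8.07 and 7.81) were highest in replicate 1. Of the same list, Kcnj1 had 8.84 in every array, and Cldn16 was lowest in replicate 1 (7.07, 7.34 and 7.34). The list of 4 genes summed to 4534, 2239 and 1566 units in replicates 1, 2 and 3. The markers of the labelled cell type were thus all present. Among the marker lists, the sum for the thick ascending limb differed most between arrays relative to its size, though not all of its genes followed. In such bulk RNA, fewer cells of a type and less RNA per cell cannot be told apart.

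The caveolins form a small family whose members differ in tissue. Cav1 builds the caveolae of endothelium, Cav2 joins it in mixed oligomers, and Cav3 is the caveolin of muscle. Cav2 and Cav1 are direct neighbours in the RefSeq annotation of mouse assembly GRCm38.p6. The windows of 300 bases around their annotated starts are printed, with that of Cav3, the third gene of the family. They were chosen with the side of the background limit of each gene known, and a link of motifs to levels was not tested. Capitals mark 3 motifs, searched on both strands: the GC box GGGCGG, the TATA box TATAAA and the E-box CAGCTG, a site of muscle regulatory factors.
Cav1 promoter, chr6:17306085-17306384, plus strand: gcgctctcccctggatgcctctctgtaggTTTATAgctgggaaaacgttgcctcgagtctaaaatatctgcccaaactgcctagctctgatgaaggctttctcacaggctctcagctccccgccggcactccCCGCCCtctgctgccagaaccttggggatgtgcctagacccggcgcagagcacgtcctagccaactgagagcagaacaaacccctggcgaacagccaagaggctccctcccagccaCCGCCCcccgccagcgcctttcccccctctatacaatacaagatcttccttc
Cav2 promoter, chr6:17280935-17281234, plus strand: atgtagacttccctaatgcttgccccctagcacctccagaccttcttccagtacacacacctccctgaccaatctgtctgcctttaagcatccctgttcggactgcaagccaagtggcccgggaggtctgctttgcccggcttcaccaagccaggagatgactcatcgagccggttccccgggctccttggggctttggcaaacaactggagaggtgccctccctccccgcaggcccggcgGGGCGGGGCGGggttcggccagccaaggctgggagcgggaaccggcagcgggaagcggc
Cav3 promoter, chr6:112459255-112459554, plus strand: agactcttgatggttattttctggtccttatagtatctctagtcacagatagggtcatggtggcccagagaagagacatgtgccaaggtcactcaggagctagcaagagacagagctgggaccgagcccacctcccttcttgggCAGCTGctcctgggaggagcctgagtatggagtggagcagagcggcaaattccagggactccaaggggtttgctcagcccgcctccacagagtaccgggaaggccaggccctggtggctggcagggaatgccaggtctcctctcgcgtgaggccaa
The Cav1 window held 2 GC boxes and 1 match to the letters of the TATA box, on the minus strand and near the upstream end of the window. The Cav2 window held 2 GC boxes that share a base, and the Cav3 window 1 E-box and no GC box. Over all 32851 windows of this length, a GC box occurred in 35.7%, a TATA box in 13.6% and an E-box in 16.3%. A second annotated start of Cav1 held none of the 3 motifs. Of the other members with a window, Ehd4, Ehd2, Cavin1 and a start of Pacsin2 held a GC box, and Cavin2 held none. Ehd2 and the other starts of Pacsin2 held an E-box. Another motif, the ETS core GGAAG, was also searched and occurred in 71.4% of windows. It was found 1, 3 and 1 times in the windows of Cav1, Cav2 and Cav3. These matches describe letters and not bound sites.

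Levels were set against a pair of limits. The first was 100 units (log2 6.64), the raw level that the study asked of its probe sets, where units are the deposited log2 levels turned back to a linear scale. The second was an approximate background limit of 246 units (log2 7.94), the 95th percentile of 1240 probe sets of olfactory, vomeronasal and bitter taste receptors, which are mostly silent outside sensory cells. All 10 caveola and diaphragm genes reached 100 units in every array, against 85.4% of all genes, and limma called all 10 above it, against 84.5% of all genes. At the background limit 9 of the 10 genes passed in every array, against 55.0% of all genes. By limma 9 genes lay above this limit, against 52.6% of all genes, and 1 lay below it, against 41.3% of all genes. With the prior variance taken from genes whose 3 arrays differed, as an alternative, the counts of the 10 genes were again 10 above 100 units, against 83.0% of all genes, and 9 above and 1 below the background limit, against 49.8% and 37.8% of all genes. The median difference from the background limit was 2.31 on the log2 scale for the 10 genes and 0.20 for all genes. Levels of different genes were not ranked, since probes differ in affinity.

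**Figure D1:**
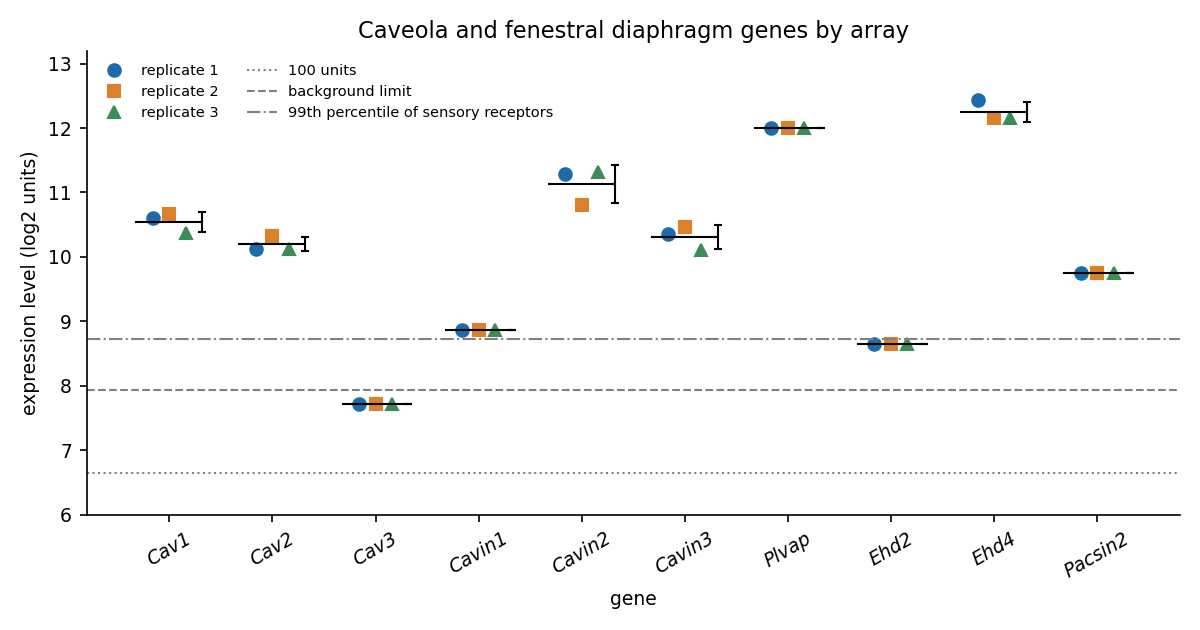
Expression level (y axis, log2 units) of the 10 genes (x axis) in medullary endothelial cells, with 1 point per array, a line at the mean and a bar of 1 SD over 3 arrays. Horizontal lines mark 100 units (6.64), the background limit (7.94) and a stricter one at 8.73. Cav3 lies under the background limit, Ehd2 between both of the upper lines, and the other 8 genes above all 3 lines.

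Cav1 and Cav2 were both well above the background limit. Cav1 stood at 10.60, 10.67 and 10.37 log2 units in replicates 1, 2 and 3. Its mean of 10.54 ± 0.16 (SD, n = 3) equals 1494 units and lay 2.60 above the background limit on the log2 scale (SE 0.087, adjusted p = 0.000804 by limma). Cav2 stood at 10.13, 10.33 and 10.13 log2 units, with the same value in replicates 1 and 3. Its mean of 10.20 ± 0.11 (1173 units) was 2.25 above the limit (SE 0.061, adjusted p = 0.000525 by limma). The arrays spanned 0.31 log2 units for Cav1 and 0.19 for Cav2, so that no array came near the limit.

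Cav3 had 7.71 log2 units (209 units) in all 3 arrays. This muscle caveolin passed 100 units, by 1.06 on the log2 scale, but was 0.24 under the background limit in every array. limma called it below that limit, with an adjusted p of 2e-09 that rests on arrays without any spread. With the alternative prior the adjusted p from limma was 0.0205, although the absent spread still entered the error behind it. At the 90th percentile of the receptor probe sets (195 units) Cav3 lay above the limit. Cavin4, the cavin of muscle, was likewise at 7.46 in all arrays, and limma called it below the background limit under both priors (adjusted p = 4.97e-10 and 0.00204). Muscle markers were no clean floor, however. Of 8 genes of skeletal and cardiac muscle 5 (62.5%) reached the background limit in every array, a share near the 55.0% of all genes. Among them were the creatine kinase Ckm (8.84) and the actin Acta1 (8.32). The myosin light chain Mylpf (8.23, 7.58 and 8.60 in replicates 1, 2 and 3), Myh6 (7.47) and Actn2 (7.57) did not reach it. The smooth muscle genes Acta2 (7.56), Tagln (7.80 ± 0.06) and Myh11 (7.98 ± 0.05) were near or under it. Others of the smooth muscle and pericyte list reached the limit in every array, namely Cspg4 (8.02 ± 0.02), Notch3 (8.51) and Mylk (9.13 ± 0.03).

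Cavin1, Cavin2 and Cavin3 lay above the background limit, and Cavin2 and Cavin3 had the widest ranges over arrays of the 10 genes (0.51 and 0.37 log2 units). Cavin1, which caveolae require for their formation, had 8.86 log2 units (465 units) in every array. It was 0.92 above the background limit (adjusted p = 1.73e-10, and 0.000262 with the alternative prior, by limma). Cavin2, which binds phosphatidylserine and helps to curve the membrane, stood at 11.28, 10.80 and 11.31 in replicates 1, 2 and 3. Replicate 2 was thus 0.49 lower than the mean of the others. The SD of 0.29 was reached or exceeded by 6.6% of all genes, of which 46.3% had no spread. Among genes with 3 different values the median SD was 0.16. The mean of 11.13 (2243 units) lay 3.19 above the background limit (SE 0.155, adjusted p = 0.00174 by limma). Cavin3, a binding protein of protein kinase C delta, stood at 10.36, 10.46 and 10.10, lowest in replicate 3. Its mean of 10.31 ± 0.19 (SD, n = 3, 1268 units) was 2.37 above the limit (SE 0.103, adjusted p = 0.00138 by limma). With 2 arrays, and without the alternative prior, some of these calls did not pass. The adjusted p of Cavin2 was 0.0528 without replicate 1 and 0.0505 without replicate 3, and that of Cavin3 was 0.0506 without replicate 1 (limma), although every array of both genes was over 2 log2 units above the limit.

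Ehd2, Ehd4 and Pacsin2, genes of the caveola neck and of endosomal membranes, lay above the background limit. Ehd2, the ATPase that holds caveolae at the surface, had 8.65 log2 units (401 units) in all arrays. It was 0.71 above the background limit (adjusted p = 2.56e-10, and 0.000585 with the alternative prior, by limma), but 0.08 under a limit set at the 99th percentile of the receptor probe sets (424 units). Its relative Ehd4, a protein of endosomal recycling, stood at 12.43, 12.16 and 12.15. The mean of 12.25 ± 0.16 (SD, n = 3, 4857 units) lay 4.30 above the background limit (SE 0.086, adjusted p = 0.000282 by limma). Ehd4 was 0.27 higher in replicate 1 than in the mean of the other arrays. The summed levels of the thick ascending limb list and of the pan-endothelial list (49802, 44122 and 44103 units) were highest in that array too, although some genes of both lists were not, such as Cldn16 (7.07, 7.34 and 7.34) and Vwf (9.15, 9.30 and 9.33). Their part in the difference was not tested. Pacsin2, an F-BAR protein of the neck, had 9.75 (864 units) in every array and was 1.81 above the limit (adjusted p = 9.02e-11, and 4.71e-05 with the alternative prior, by limma).

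Plvap, the diaphragm protein, had 12.00 log2 units (4107 units) in each of the 3 arrays. It lay 5.36 above 100 units and 4.06 above the background limit on the log2 scale. The adjusted p from limma was 8.79e-11, and 2.81e-05 with the alternative prior. The descending vasa recta markers Slc14a1 (11.67, 12.08 and 11.84), a urea transporter, and Aqp1 (11.31, 12.18 and 11.86), a water channel, were highest in replicate 2 and lowest in replicate 1. The other 3 markers of that list differed from this order, with the connexin Gja4 at 9.02, 9.31 and 8.89, the ephrin Efnb2 at 11.04, 10.81 and 10.85 and the transcription factor Sox17 at 10.18, 10.18 and 10.06. The diaphragm gene and the markers of the continuous vessels were measured in the same pools, and which cells carried which transcript cannot be told apart.

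An identical value in all arrays was common in this table. It was found for 5 of the 10 genes (Cav3, Cavin1, Plvap, Ehd2 and Pacsin2), against 46.3% of all genes, and Cav2 had 2 different values. For these 5 genes an SD of 0 is a property of the deposited summary and no measure of biological error. Each had the same SE in limma, 1.97e-05, or 0.06 with the alternative prior. Their p-values thus rest on the prior variance and measure no spread between pools. Among the 5 genes with any spread, Cav1, Cav2 and Cavin3 were highest in replicate 2, Cavin2 was highest in replicate 3 and lowest in replicate 2, and Ehd4 was highest in replicate 1. Replicate 3 was 0.27 lower than the mean of the others for Cav1 and 0.32 lower for Cavin3. The middle 90% of all genes, those without spread included, lay between -0.28 and 0.20. One array stands behind each such deviation, so none was tested.

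**Figure D2:**
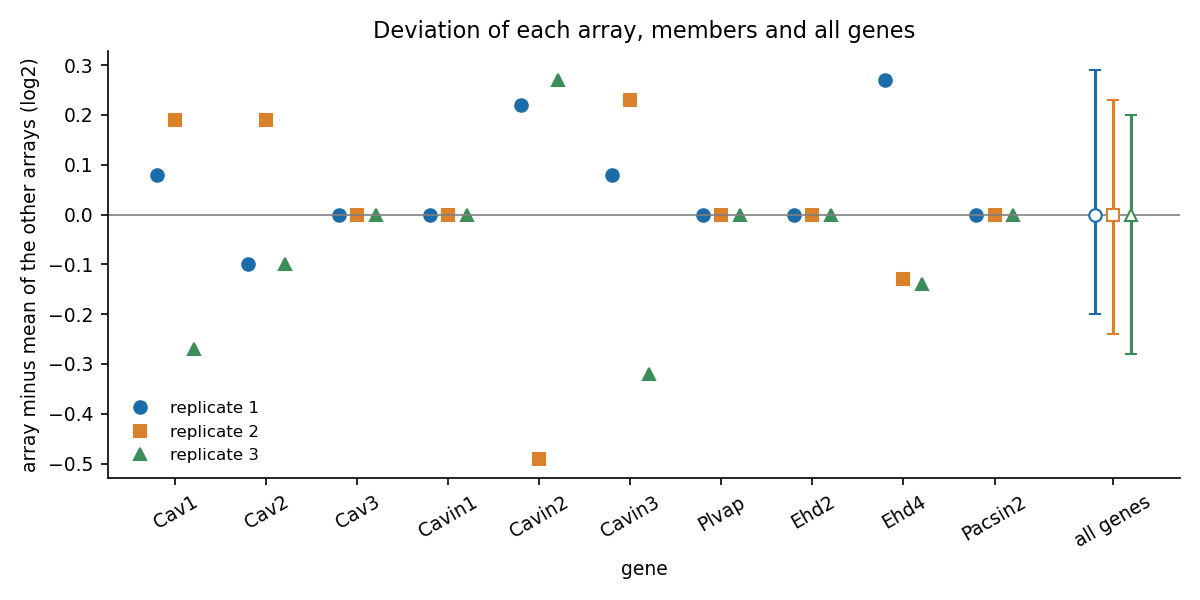
Difference of each array from the mean of the other arrays (y axis, log2) for the 10 genes and, at the right, for all genes (open point for the median, bar for the 5th to 95th percentile). The bars include the genes without spread. Cavin2 in replicates 2 (-0.49) and 3 (0.27) and Cavin3 in replicate 3 (-0.32) lie outside the bars of their arrays, and 5 genes lie at 0 in every array.

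Relatives of the coat and neck genes lay on both sides of the background limit. All 9 measured relatives reached 100 units in every array, and 6 reached the background limit, against 55.0% of all genes. limma called 5 above this limit, against 52.6% of all genes, and 3 below, against 41.3%, with a median difference from it of 1.08, against 0.20 for all genes. Ehd1, the endocytic recycling relative of Ehd4, averaged 9.02 ± 0.03 (SD, n = 3), and Ehd3, known as a marker of glomerular endothelium, stood at 10.01, 9.82 and 10.01. The dynamin Dnm2, which cuts vesicles from the membrane, stood at 11.07, 10.58 and 11.07. The PACSIN relatives were at the limit or under it, with the neuronal Pacsin1 at 7.85 in all arrays and the muscle form Pacsin3 at 8.01 ± 0.03. The Pacsin1 call below the limit did not hold with the alternative prior (adjusted p = 0.227 by limma), and Pacsin3 could not be told from the limit (adjusted p = 0.0505 by limma). Of the flotillins, which mark membrane domains apart from caveolae, Flot1 was at 9.02 ± 0.02 and Flot2 at 7.65.

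Genes of proteins found in caveolae or carried through them, listed together with the caveola suppressor Mfsd2a, also lay on both sides of the limit. Of 20 listed genes 19 had a probe set of their own, and 14 reached the background limit in every array, against 55.0% of all genes. limma called 13 above it, against 52.6% of all genes, and 3 below, against 41.3%. The endothelial nitric oxide synthase Nos3, which Cav1 protein binds and holds inactive, had 9.02 in all arrays. The insulin receptor Insr stood at 11.71, 11.45 and 11.35, the fatty acid receptor Cd36 at 13.13, 12.78 and 12.65, and the lipoprotein receptor Scarb1 at 9.81, 9.81 and 9.67. Mfsd2a, the lipid transporter that suppresses caveolae in brain endothelium, was at 7.72 in all arrays, 0.22 under the limit (adjusted p = 2.31e-09, and 0.0253 with the alternative prior, by limma). The channel Trpc1 (7.91 ± 0.02), the kinase Src (7.87) and the protein kinase Prkca (7.38) also lay under it in every array, while Trpc1 was not told from it (adjusted p = 0.0725 by limma) and Src was not with the alternative prior (adjusted p = 0.325).

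Genes tied to the making of fenestrae passed the background limit as a whole. All 11 did so in every array, against 55.0% of all genes, limma called all 11 above it, against 52.6%, and their median difference was 3.92 on the log2 scale. The list opens with the VEGF receptors, since VEGF signaling maintains fenestrae. Kdr averaged 12.17 ± 0.21 and Flt1 12.84 ± 0.13 log2 units (SD, n = 3), the coreceptor Nrp1 stood at 12.61, 12.44 and 12.17, and the ligand Vegfa at 8.81, 8.73 and 8.81. The clathrin coat serves the other main route of endocytosis, and all 15 of its measured genes reached the background limit too, with a median difference of 2.34. The clathrin light chains Clta and Cltb averaged 9.87 ± 0.08 and 10.30 ± 0.10, the heavy chain Cltc 11.90 ± 0.02, and the adaptor Ap2a1 had 9.09 in every array. The lists were described by these counts alone, and nothing was called particular to any of them.

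**Figure D3:**
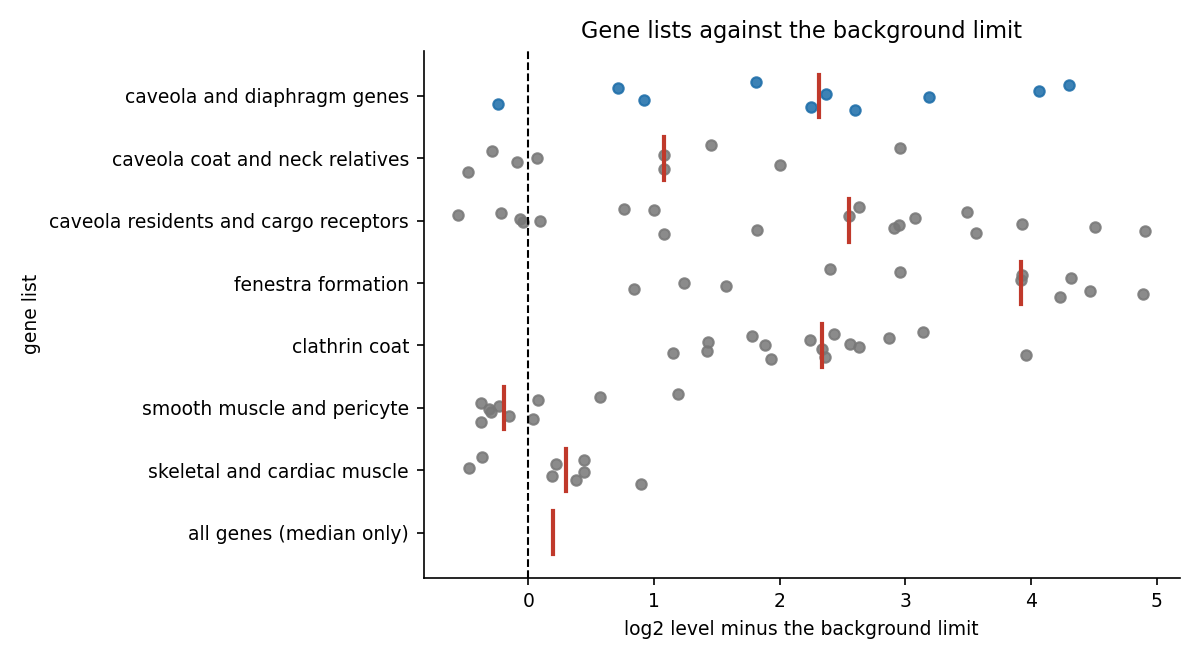
Difference of the mean level from the background limit (x axis, log2) for each gene of 7 lists (rows), with the list median as a bar and the median of all genes (0.20) in the bottom row. The 10 caveola and diaphragm genes have a median of 2.31, the 9 relatives of 1.08 and the 10 smooth muscle and pericyte genes of -0.19.

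Summed over the 10 genes, the level was 18028, 16728 and 16677 units in replicates 1, 2 and 3. The sum over 12 pan-endothelial markers was also highest in replicate 1, and that over 5 descending vasa recta markers was lowest there, with 9568, 12531 and 10750 units, of which Slc14a1 and Aqp1 alone had their lowest level in replicate 1. Smooth muscle and pericyte markers summed to 2669, 2629 and 2640 units, highest in replicate 1. Muscle markers summed to 2390, 2297 and 2493 units, highest in replicate 3. The part of any of these lists in the member levels was not tested. Of the 10 genes themselves only Ehd4 was highest in replicate 1. Their median level was highest in replicate 2, with 10.24, 10.40 and 10.12 log2 units in replicates 1, 2 and 3.

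**Figure D4:**
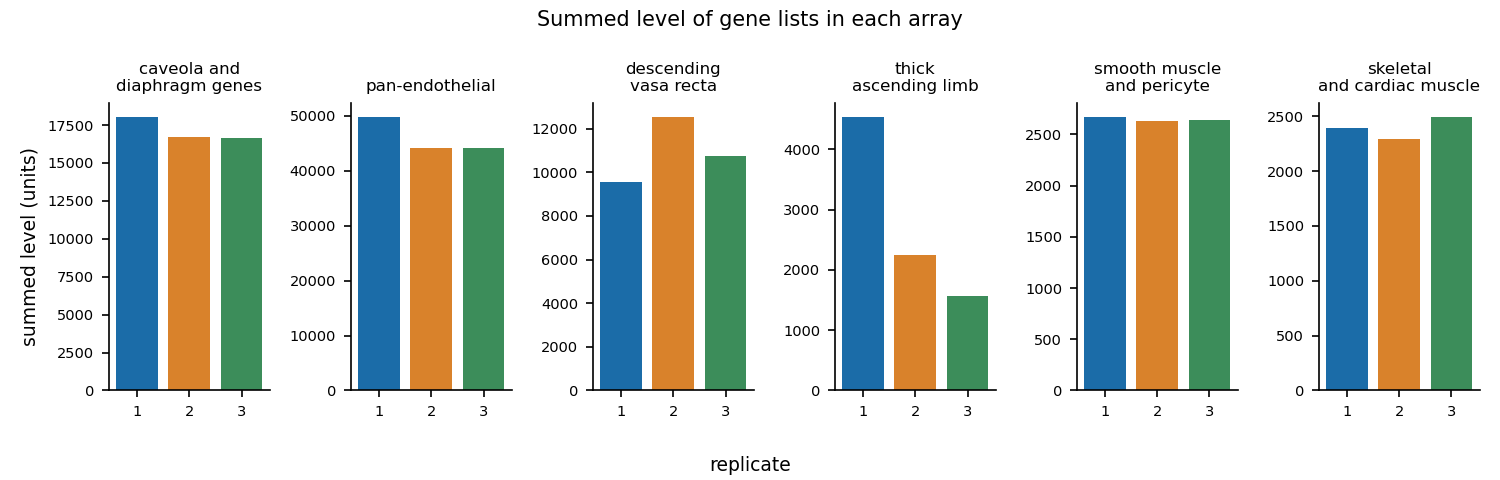
Summed level (y axis, units, from 0) of 6 gene lists in replicates 1, 2 and 3 (x axis), with a scale of its own in each panel. The 10 caveola and diaphragm genes sum to 18028, 16728 and 16677 units, and the thick ascending limb list of 4 genes to 4534, 2239 and 1566 units.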

How the data were processed

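Endothelial RNA was carried through 1 round of NuGEN amplification and hybridised to Affymetrix Mouse Gene 1.0 ST arrays, which read 1 colour. Per probe set, the authors deposited a log2 level. The labels name Affymetrix Expression Console for this step, and the study names RMA normalization. The log2 scale was read from the range of 3.55 to 14.43. The sources used here do not say whether this scale is that of the study's raw level, and give no build or batch. Of 35557 probe sets 21789 named 1 gene, 1621 several and 12147 none, and 21698 (99.6%) of the first were matched to current RefSeq symbols (GRCm38.p6) through Entrez identifiers. The probe set with the highest mean stood for a gene. For each limit, the distance of the log2 level from it was tested in limma 3.58.1 (R 4.3.3) by an intercept and eBayes, two-sided, with p-values adjusted by Benjamini-Hochberg over 19938 genes and a threshold of 0.05. As 46.3% of genes had 1 value in all arrays, the error of this fit is likely too small, and the fit was repeated with the prior variance from genes with 3 different values. The script was tested on simulated data in which every gene had spread, so that test does not cover genes with 1 value. Other limits, probe set rules, normalizations and priors were tried, as were fits with unnamed probe sets or without 1 replicate. The number of arrays limits the precision, and a p-value measures at most the spread between these 3 pools. For a gene with 1 value in all arrays it measures none, since the error then came from the prior variance. The labels do not say that the pools came from different animals, while the study calls its samples independent.

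Members, lists and tests were chosen with earlier results of these data known. Every member is named, with the first 4 measured genes of each related list and up to 4 of its genes under the background limit. The first 3 markers of a cell type are named where its list bears on a member, except that 1 is named for the collecting duct. Cldn16, Vwf, Efnb2, Sox17, Myh6, Actn2, Cspg4, Notch3 and Mylk were named after their values were seen. Promoter windows were taken from RefSeq for 8 of the 10 genes. A planned comparison of protein sequences was not made. Python 3.11.15 with pandas 2.3.3 and matplotlib 3.10.9 was used.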

Additional observations from a re-analysis of the deposited data

How the results depend on the processing

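The counts of caveola and diaphragm genes past each limit lay between 7 and 10 under the alternative runs. All 10 were above 100 units in each, also at 50 and 200 units. Above the background limit limma called 7 to 9 with 1 array left out, 9 with either normalization or any other prior, 10 with the limit at the 90th percentile of the receptor probe sets and 8 at the 99th. At the 90th percentile Cav3 lay 0.10 above the limit on the log2 scale, and at the 99th Ehd2 had -0.08, so both changed sides. Over all genes the count above the background limit was 5964 at the 99th percentile, against 10496 at the 95th. Each of the 10 genes had 1 probe set, so the rule for several probe sets could not move them. With 2 arrays, genes without spread received adjusted p-values that rest on no error. No paired analysis was possible because all samples belong to 1 group.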

Other observations

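Cd59a, a surface inhibitor of complement that is anchored by a lipid and gathers in membrane domains with caveolin, had 7.15 log2 units in replicate 1, against 9.98 in replicate 2 and 9.71 in replicate 3. It was singled out after its values were seen. Its SD of 1.56 over 3 arrays was the widest of the caveola residents, and limma could not tell it from the background limit (adjusted p = 0.353).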
